A study of Mus musculus with 8 samples.

Results

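The 49 genes described here drive the copying of DNA and the division of the chromosomes, and they were followed in left ventricular RNA from 8 mice, 1 Affymetrix mouse gene 1.0 ST array per heart. They were taken by symbol, or by an older alias, from a fixed list of 21 genes of the G1/S transition and of DNA replication and 28 genes of G2 and mitosis. Probe sets were found for 48 of the 49, all 21 of the first group and 27 of the second, among 19933 genes with a probe set of 1 symbol. Ccnb1, which encodes the mitotic cyclin B1, had no such probe set, so its level is not analysed here and only its promoter is used. For Top2a, Pcna and Tk1, which have more than 1 probe set, the brightest was used.

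All mice were C57/Bl6 and 11 weeks old, and the transgenes had been on for 6 weeks. The 3 control hearts came from littermates with a single transgene, the responder or the driver. The 2 PlGF hearts expressed placental growth factor, an angiogenic ligand of the VEGF family, from a Tet-OFF system whose activator tTA is driven by the αMHC promoter and so is confined to cardiomyocytes. The 3 hearts labelled PlGF/RGS4 were to express RGS4, a protein that shuts off G protein signalling, together with PlGF. A doxycycline diet kept the transgenes silent until they were induced. The study used the pairs of transgenic groups to set angiogenesis with hypertrophy against angiogenesis without it.

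Pgf, the gene of PlGF, stood at 211, 349 and 387 intensity units in control and at 4136 and 917 in PlGF. Under the PlGF/RGS4 label it stood at 300.0, 229 and 211, and Rgs4 at 234, 187 and 229 against 209.5, 277 and 281.5 in the controls. Neither gene was above control there, so Pgf goes against that label, which is used below as a name only. For Rgs4 no group shows whether the probe set reads the transgene, so its values check nothing. PlGF replicate 1 stood apart from the other arrays, with a mean correlation of 0.976 with the arrays of the other groups against 0.991 to 0.993 for the other 7. Xist read 26.9 to 50.8 in control 2, PlGF 1 and PlGF/RGS4 2 and 2581 to 2958 in the others, so each group held 1 heart read as male. All 8 cardiomyocyte marker genes were bright, with means of 6845 to 18580.

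Cells enter a new round of division when cyclin D and cyclin E kinases release E2F factors, which switch on the genes of DNA synthesis. The MCM helicase is loaded at origins in G1 and opened with Cdc45 and the GINS complex in S phase. Later, FoxM1 and the MuvB complexes switch on the G2 and mitosis genes, and the Aurora and Polo kinases, the spindle motors and the anaphase promoting complex carry the chromosomes through division. In the adult mouse heart most cardiomyocytes have left the cell cycle, and dividing cells are mostly endothelial cells, fibroblasts and leukocytes. In RNA of a whole tissue, more cells in cycle and more RNA per cycling cell cannot be told apart.

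The promoters of the 2 groups carry different short sequences, and 7 windows are shown because they belong to genes with wide differences in the hearts and with matches before the start, or, for Cenpf, to the single G2/M gene that read lower in PlGF. RefSeq promoter windows of 300 bases (250 before the start of the gene to 50 after it, assembly GRCm38.p6) were matched by symbol for 38 of the 49 genes. Only the first window listed for a gene was used, and other starts were not examined. In each line the 150 bases before the start are printed 5′ to 3′ on the strand of the gene, and the capitals mark a CHR (TTTGAA or TTCGAA, the element bound by MuvB), a CCAAT box (CCAAT, bound by NF-Y) or an E2F motif (TTCCCGC or TTGGCGC or TTCGCGC or TTGCCGC), each on either strand. Matches to the E2F forms may overlap one another, and a capital run longer than 7 letters holds more than 1 of them.
Mki67: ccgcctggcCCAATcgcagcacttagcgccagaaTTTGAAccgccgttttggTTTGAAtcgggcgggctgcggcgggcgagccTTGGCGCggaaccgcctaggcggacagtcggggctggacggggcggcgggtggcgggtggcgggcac
Top2a: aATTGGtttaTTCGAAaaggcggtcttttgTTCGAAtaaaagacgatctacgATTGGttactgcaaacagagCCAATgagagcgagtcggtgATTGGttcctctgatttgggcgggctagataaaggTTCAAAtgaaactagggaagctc
Cdk1: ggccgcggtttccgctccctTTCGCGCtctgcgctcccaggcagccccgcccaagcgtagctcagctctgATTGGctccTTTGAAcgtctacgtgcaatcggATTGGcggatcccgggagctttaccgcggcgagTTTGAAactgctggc
Kif11: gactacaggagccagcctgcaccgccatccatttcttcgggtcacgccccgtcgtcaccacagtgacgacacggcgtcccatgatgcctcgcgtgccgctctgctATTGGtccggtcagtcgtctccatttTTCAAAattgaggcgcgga
These are G2/M genes. The window of Mki67, the proliferation antigen Ki-67, lies at chr7:135716380-135716529 on the minus strand and holds 2 CHR, 1 CCAAT box and 1 E2F motif. That of Top2a, topoisomerase IIα, lies at chr11:99024190-99024339 on the minus strand and holds 3 CHR and 4 CCAAT boxes. That of Cdk1, the mitotic kinase, lies at chr10:69352913-69353062 on the minus strand and holds 2 CHR, 2 CCAAT boxes and 1 E2F motif. That of Kif11, a motor that pushes the spindle poles apart, lies at chr19:37376232-37376381 on the plus strand and holds 1 CHR and 1 CCAAT box.

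The next lines give 2 helicase genes and the kinetochore gene Cenpf.
Mcm5: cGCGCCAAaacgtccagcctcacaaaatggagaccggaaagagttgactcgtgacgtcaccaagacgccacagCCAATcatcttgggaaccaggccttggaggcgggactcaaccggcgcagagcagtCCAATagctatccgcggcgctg
Mcm6: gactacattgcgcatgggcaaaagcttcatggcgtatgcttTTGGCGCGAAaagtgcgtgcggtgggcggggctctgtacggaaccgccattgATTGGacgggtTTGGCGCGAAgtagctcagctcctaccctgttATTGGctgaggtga
Cenpf: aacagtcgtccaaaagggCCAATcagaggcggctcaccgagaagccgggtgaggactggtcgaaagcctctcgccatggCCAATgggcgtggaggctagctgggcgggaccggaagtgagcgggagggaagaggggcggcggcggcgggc
The Mcm5 window, at chr8:75109359-75109508 on the plus strand, holds 2 CCAAT boxes and 1 E2F motif and 0 CHR. The Mcm6 window, at chr1:128359706-128359855 on the minus strand, holds 4 overlapping E2F matches at a pair of places, 2 CCAAT boxes and 0 CHR. In Cenpf, at chr1:189688087-189688236 on the minus strand, there are 2 CCAAT boxes before the start, and its CHR begins 3 bases past it.

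Over the full windows a CHR was present in 19 of 23 G2/M genes (82.6%) and 3 of 15 G1/S and replication genes (20.0%). The share was 19.4% of the promoters of 27025 genes and 16.8% of those of measured genes. E2F motifs ran the other way, with 8 of 15 G1/S and replication genes (53.3%) and 4 of 23 G2/M genes (17.4%) against 9.69% of all promoters and 13.0% of those of measured genes. CCAAT boxes were found in 21 of 23 G2/M genes (91.3%), 10 of 15 G1/S and replication genes (66.7%) and 37.9% of all promoters. All 19 G2/M windows with a CHR also held a CCAAT box, a pair present in 7.70% of all promoters. The G2/M genes without a CHR in the window used were Nusap1, Cenpe, Birc5 and Ccnb1, and windows at other starts of these genes were not examined. These are matches of letters and not measured binding.

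**Figure D1:**
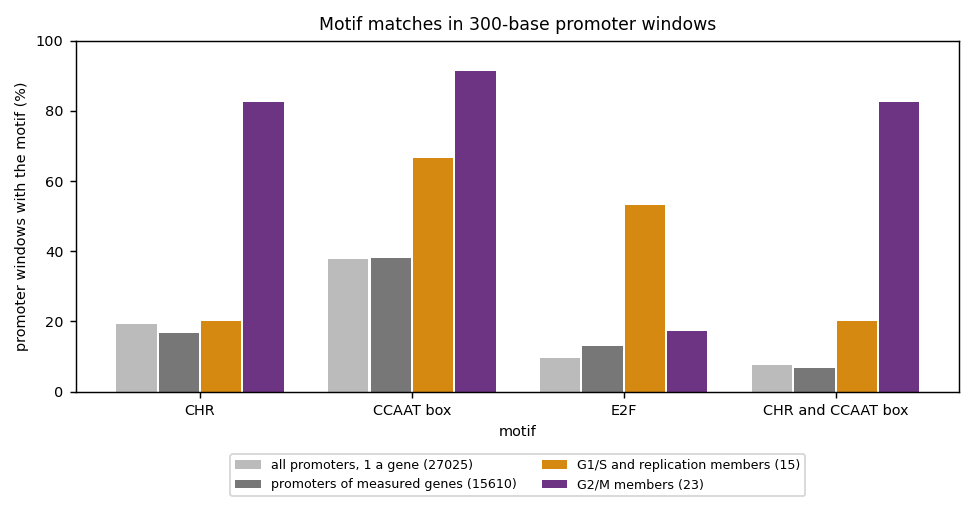
Share of 300-base promoter windows, in percent, that hold each motif on either strand, for all promoters, promoters of measured genes, 15 G1/S and replication genes and 23 G2/M genes. A CHR is in 82.6% of the G2/M windows and 20.0% of the G1/S and replication windows, and an E2F motif in 17.4% and 53.3%.

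In PlGF hearts most of the 48 genes read above the controls, and the G2/M genes did so by more than the G1/S and replication genes. The median log2 difference, PlGF minus control, was 0.60 over the 27 G2/M genes (range −0.80 to 1.50) and 0.20 over the 21 G1/S and replication genes (range −0.02 to 0.79), against −0.03 over all 19933 genes. A difference here is between means of log2(intensity + 1), and one given with ± (the SE from limma) is PlGF minus control unless another pair is named. The added 1 slightly understates the change of dim genes, and 36 of the 48 lay below the median level of all genes (intensity 136). That held for 25 of the 27 G2/M genes and 11 of the 21 others. After adjustment over all genes only 1 of the 48 passed at 0.05 (limma), Mcm5, which rose, and 0 fell; the background was 1.79% of all genes higher (356) and 0.748% lower (149), or 376 and 317 genes with each array centred on its median. At an unadjusted limma p under 0.05, 26 of the 48 were higher and 1, Cenpf, was lower, against 10.9% and 11.7% of all genes.

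Both PlGF arrays lay above all 3 controls for 29 of the 48 genes (14.3% of all genes) and below them for 1 (19.5% of all genes), and the groups overlapped for 18. By group this was 22 higher and 1 lower of 27 G2/M genes and 7 of 21 G1/S and replication genes. These counts take any gap as above. In Pcna, Cdc45, Ube2c and Birc5 the lower PlGF array exceeded the highest control by under 1%, and with gaps of at least 1%, a limit set after the values were seen, 25 of the 48 and 12.9% of all genes remain. With 2 arrays against 3 the exact permutation test cannot give a two-sided p under 0.1, so single genes rest on the limma fit. The PlGF hearts differed widely. PlGF 1 alone was above every control for 45 of the 48 genes (28.7% of all genes) and PlGF 2 for 29 (23.1% of all genes), and 43 of the 48 were higher in PlGF 1 than in PlGF 2.

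**Figure D2:**
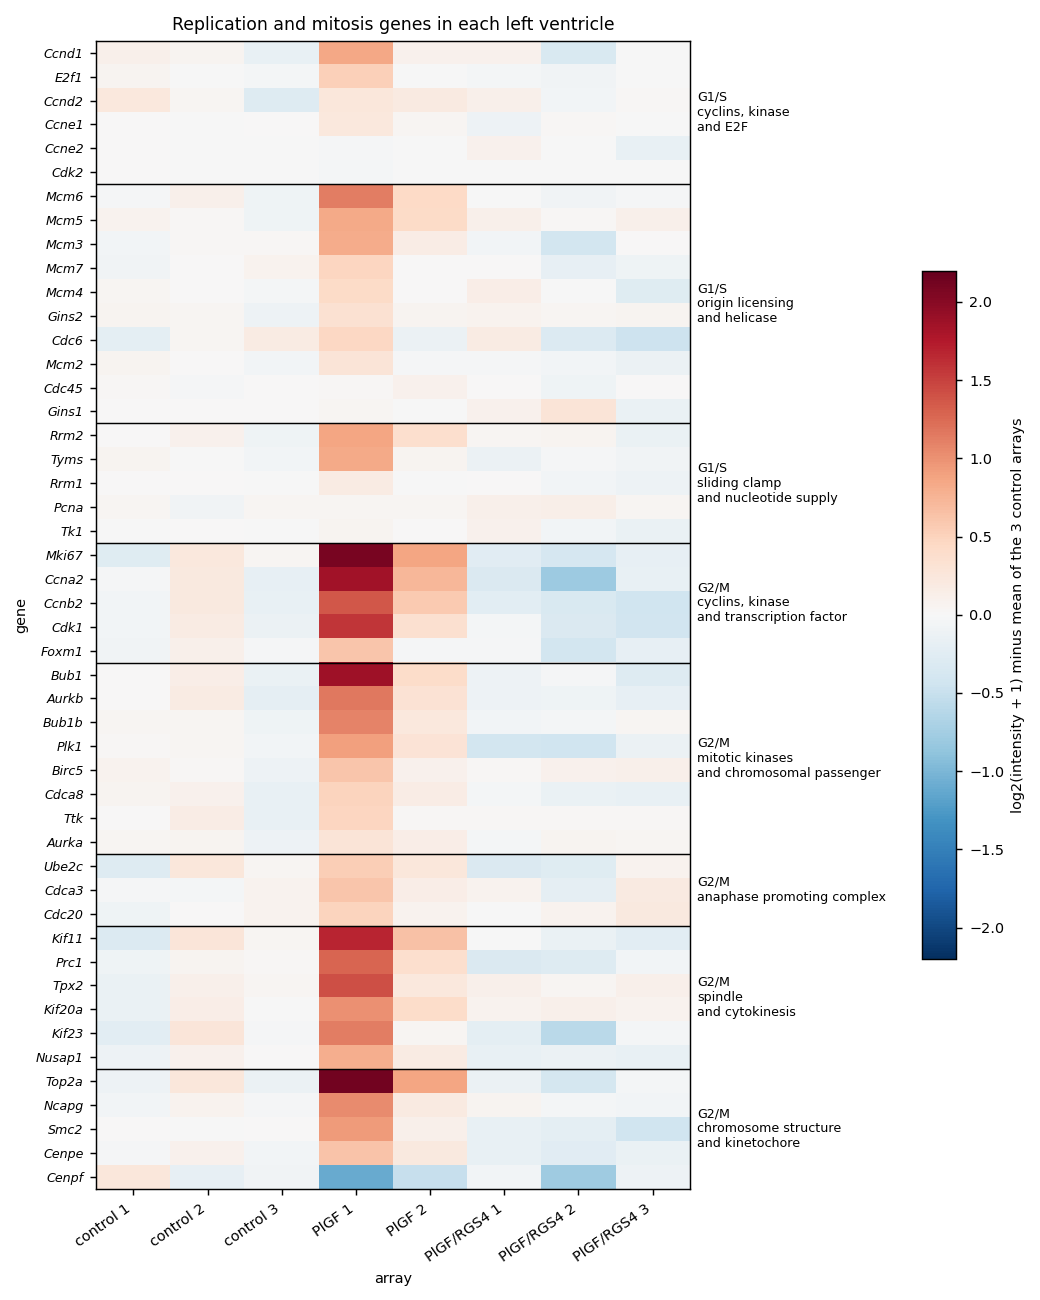
Each cell is log2(intensity + 1) of 1 gene (row, ordered by role) in 1 array (column) minus the mean of the 3 control arrays. The column of PlGF 1 is the reddest in the G2/M rows (median 1.01), that of PlGF 2 is paler (median 0.23), and Cenpf is blue in both.

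The group of mitotic cyclins, their kinase, FoxM1 and the proliferation antigen Ki-67 had the highest median difference of the 8 roles, 0.97. Mki67 read 89.6, 127 and 112 in the controls, 466 and 199.6 in PlGF, with 90.7, 83.5 and 95.8 under the PlGF/RGS4 label. Both PlGF hearts were above all other arrays, PlGF 1 by the wider margin, and the difference from control was 1.49 ± 0.32 (SE; limma adjusted p = 0.0598). Ccna2, cyclin A2 of S phase and G2, read 72.4, 85.3 and 64.5 in control, 266.5 and 123 in PlGF, with 58.5, 42.1 and 65.5 under the PlGF/RGS4 label, a difference of 1.29 ± 0.32 from control (limma adjusted p = 0.0790).

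Ccnb2 encodes cyclin B2, a partner of Cdk1 at the entry into mitosis. It read 126, 153.5 and 118 in the controls, 341.5 and 197 in PlGF, with 112, 104 and 96.4 under the PlGF/RGS4 label. The 3 groups did not overlap, with PlGF at the top and PlGF/RGS4 at the bottom. Its difference from control in PlGF was 0.97 ± 0.22 (limma adjusted p = 0.0657). Cdk1 itself read 80.5, 94.4 and 76.6 in control, 251 and 106 in PlGF, with 80.6, 66.6 and 62.4 under the PlGF/RGS4 label. Most of its difference of 0.96 ± 0.32 came from PlGF 1, and it stood at 0.35 without that array (limma adjusted p = 0.137 with both arrays). Foxm1, the transcription factor of the G2/M genes, overlapped between groups, with 54.3, 62.0 and 56.8 in control and 88.7 and 56.8 in PlGF (0.30 ± 0.19; limma adjusted p = 0.376).

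Among the 8 genes of mitotic kinases, the spindle checkpoint and the chromosomal passenger complex, 7 were higher in both PlGF arrays than in every control (14.3% of all genes). Of these 8, 0 passed the adjusted test (limma), against 1.79% of all genes higher. At an unadjusted limma p under 0.05, 7 were higher (10.9% of all genes). Bub1, a kinase of the spindle checkpoint, read 35.6, 39.2 and 32.1 in control, 132 and 47.1 in PlGF, with 32.8, 34.7 and 29.1 under the PlGF/RGS4 label. PlGF 1 was 3.71 times the control mean and PlGF 2 was 1.32 times, and the difference was 1.13 ± 0.36 (limma adjusted p = 0.130). Aurkb, the kinase of the chromosomal passenger complex, read 113, 127 and 98.1 in control and 253 and 140.4 in PlGF (0.75 ± 0.22; limma adjusted p = 0.114).

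Plk1, the Polo kinase that drives mitotic entry and spindle assembly, read 96.1, 97.7 and 90.2 in control, 178 and 117 in PlGF, with 71.5, 69.5 and 86.6 under the PlGF/RGS4 label. As for Ccnb2, the groups did not overlap (PlGF minus control 0.60 ± 0.17; limma adjusted p = 0.103). Its checkpoint partner Bub1b differed by 0.66 ± 0.22, and the passenger subunits Birc5 (survivin) and Cdca8 (borealin) by 0.34 ± 0.14 and 0.33 ± 0.12. Aurka, which acts at the spindle poles, differed by 0.22 ± 0.07. Ttk, the kinase that starts the checkpoint, read 25.4, 28.3 and 22.3 in control and 35.5 and 25.8 in PlGF, and was the single gene of the 8 whose groups overlapped.

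The 6 spindle and cytokinesis genes had a median difference of 0.76. Kif11 read 47.8, 70.9 and 60.4 in control, 190.0 and 92.6 in PlGF, with 58.9, 53.1 and 50.3 under the PlGF/RGS4 label, a difference of 1.16 ± 0.29 (limma adjusted p = 0.0772). Kif20a, a kinesin of the cleavage furrow, read 68.1, 82.8 and 74.9 in control and 152 and 99.2 in PlGF, and its adjusted p was 0.0708 (0.71 ± 0.17, limma). Both PlGF arrays lay above the controls for these genes and for Prc1, which bundles the midzone microtubules (0.83 ± 0.23), Tpx2, which activates Aurora A on the spindle (0.82 ± 0.29), and Nusap1, a spindle-binding protein (0.49 ± 0.16). Kif23, a motor of the central spindle, was above control in PlGF 1 at 145, but in PlGF 2 its 68.4 lay among the control values of 56.0, 79.9 and 64.8.

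Chromosome structure and kinetochore genes held both the highest and the lowest difference of the 48. Top2a, which untangles sister chromatids, read 56.8, 73.4 and 56.2 in control, 273 and 113 in PlGF, with 56.4, 47.2 and 59.6 under the PlGF/RGS4 label. PlGF 1 was at 4.40 and PlGF 2 at 1.82 times the control mean, and the difference was 1.50 ± 0.33 (limma adjusted p = 0.0628). A second, very dim Top2a probe set read 11.8, 9.8 and 12.6 in control and 14.7 and 10.5 in PlGF. Its difference was 0.12 ± 0.15 (limma adjusted p = 0.6545 over all probe sets). Cenpf, a large protein of the outer kinetochore, read 224, 167 and 179 in control and 87.1 and 133 in PlGF. It was the one G2/M gene below every control in both PlGF hearts, by −0.80 ± 0.26 (limma adjusted p = 0.137), although PlGF/RGS4 2 was at 108.5, beside 180.0 and 174 in the other arrays of that label. The kinetochore motor Cenpe differed by 0.42 ± 0.12, and the condensin subunits Ncapg and Smc2 by 0.62 ± 0.21 and 0.52 ± 0.21.

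The 3 genes of the anaphase promoting complex pathway had smaller differences. Ube2c, the ubiquitin-conjugating enzyme of the complex, read 69.3, 101.1 and 87.0 in control and 124 and 101.4 in PlGF (0.40 ± 0.18), so PlGF 2 was level with control 2. Cdca3, which triggers mitotic entry, differed by 0.38 ± 0.16, and Cdc20, the activator of the complex, by 0.28 ± 0.13 with overlapping groups.

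**Figure D3:**
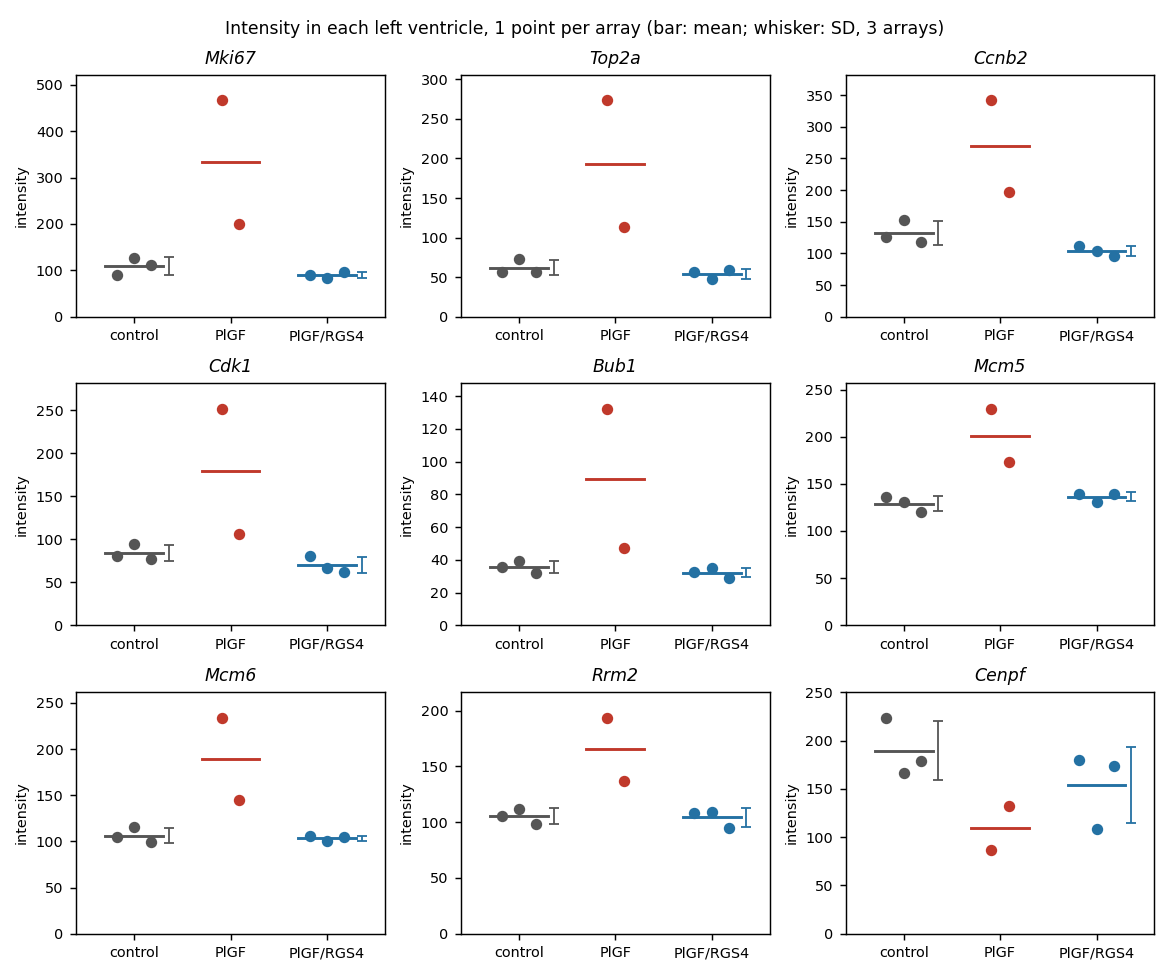
Intensity (linear axis from 0) of 9 genes in each array, by group, with bars at the group means and whiskers for the SD of the groups of 3. For the first 8 genes both PlGF arrays lie above all controls, with PlGF 1 always the higher, and for Cenpf both lie below.

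Of the 10 licensing and helicase genes all had a difference above 0 in PlGF, with a median of 0.21, and 4 had both PlGF arrays above every control (14.3% of all genes). Mcm5, a subunit of the MCM helicase ring, read 136, 130.3 and 120.0 in the controls, 229 and 173 in PlGF, with 140, 131 and 139 under the PlGF/RGS4 label. Both PlGF hearts were above all 6 other arrays, at 1.78 and 1.34 times the control mean. It rose by 0.63 ± 0.12 (limma adjusted p = 0.0425), a call that was lost when any 1 array other than PlGF 2 was left out (limma adjusted p up to 0.149). The adjusted p without PlGF 2 was 0.000858 (limma), but the PlGF arm is then 1 array, assumed to vary like the other groups. The call was also lost in 6 of 11 other settings: array weights, only the 2 groups compared, the methods' t-test, sex as a covariate, the replicate block and log2(intensity + 16).

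Mcm6, another subunit of the ring, had a wider difference and more spread. It read 104.5, 115 and 99.6 in control, 234 and 144 in PlGF, with 106, 100.3 and 104 under the PlGF/RGS4 label (0.79 ± 0.18; limma adjusted p = 0.0657). Mcm3 read 80.3, 86.2 and 86.1 in control and 148 and 94.1 in PlGF (0.48 ± 0.19; limma adjusted p = 0.194). In Mcm2, Mcm4 and Mcm7, PlGF 1 was above every control at 203, 186 and 283, whereas PlGF 2 was within the control range at 164, 138.5 and 203. The 6 subunits of 1 ring thus ran from 0.13 ± 0.09 for Mcm2 to 0.79 for Mcm6.

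The loader and the partners of the ring had differences of at most 0.20. Cdc45, which joins MCM and GINS into the active helicase, read 122, 119 and 121 in control and 123 and 128 in PlGF (0.06 ± 0.05). Gins1 read 58.9 in each of the 3 controls and 60.5 and 58.8 in PlGF (0.02 ± 0.11). Gins2 and the MCM loader Cdc6 differed by 0.20 ± 0.09 and 0.16 ± 0.23, with overlapping groups.

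Rrm2, the regulated subunit of ribonucleotide reductase that makes the DNA building blocks, had the widest difference among the 5 genes of the clamp and of nucleotide supply. It read 106, 112 and 98.5 in control, 194 and 137 in PlGF, with 108, 109 and 94.9 under the PlGF/RGS4 label (0.62 ± 0.14; limma adjusted p = 0.0692). The other subunit of the enzyme, Rrm1, read 421, 424 and 418 in control and 480 and 418 in PlGF (0.09 ± 0.07). Tyms, which makes thymidylate, was at 183 in PlGF 1 and 107 in PlGF 2, against 107.5, 102 and 98.7 in control (0.44 ± 0.19).

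Pcna, the sliding clamp of the polymerases, read 940.6, 865 and 940.8 in control, 941 in both PlGF hearts, and 988, 997 and 941 under the PlGF/RGS4 label. The value 941 thus stood in 3 arrays. Of the 48 genes, 21 held 1 value in at least 2 arrays and 8 in at least 3, and the kinase gene Cdk2 read 271 in 5 of the 8 arrays. Such repeats lower the spread between arrays in those genes, and their part in the tests was not tested. The second Pcna probe set gave nearly the same values, with a difference of 0.05 against 0.04, and both are uncertain as separate measures. Tk1, thymidine kinase, depended on the probe set. The brightest read 139, 140.5 and 138 in control and 145 and 140.5 in PlGF (0.04 ± 0.07), while the dimmer read 48.6, 62.1 and 54.5 and then 101 and 62.3 (0.53 ± 0.19; limma adjusted p = 0.167 over all probe sets).

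The genes of the G1 cyclins, Cdk2 and E2f1 had a median difference of 0.18. Of these 6, 0 passed the adjusted test or the unadjusted one (limma), against 1.79% and 10.9% of all genes higher. Ccnd1, cyclin D1, the growth factor sensor of G1, read 1130, 1102 and 934 in control, 1896 and 1126 in PlGF, with 1125, 833 and 1040 under the PlGF/RGS4 label (0.47 ± 0.22; limma adjusted p = 0.258). PlGF 1 was far above the controls and PlGF 2 was among them. E2f1 gave the same picture, with 109, 104 and 101 in control and 151.5 and 104 in PlGF (0.26 ± 0.14). Ccnd2 (0.22 ± 0.14) and Ccne1 (0.14 ± 0.07) lay nearer to 0. Ccne2 and Cdk2 were the G1/S genes with a difference below 0, −0.01 ± 0.07 and −0.02 ± 0.04.

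**Figure D4:**
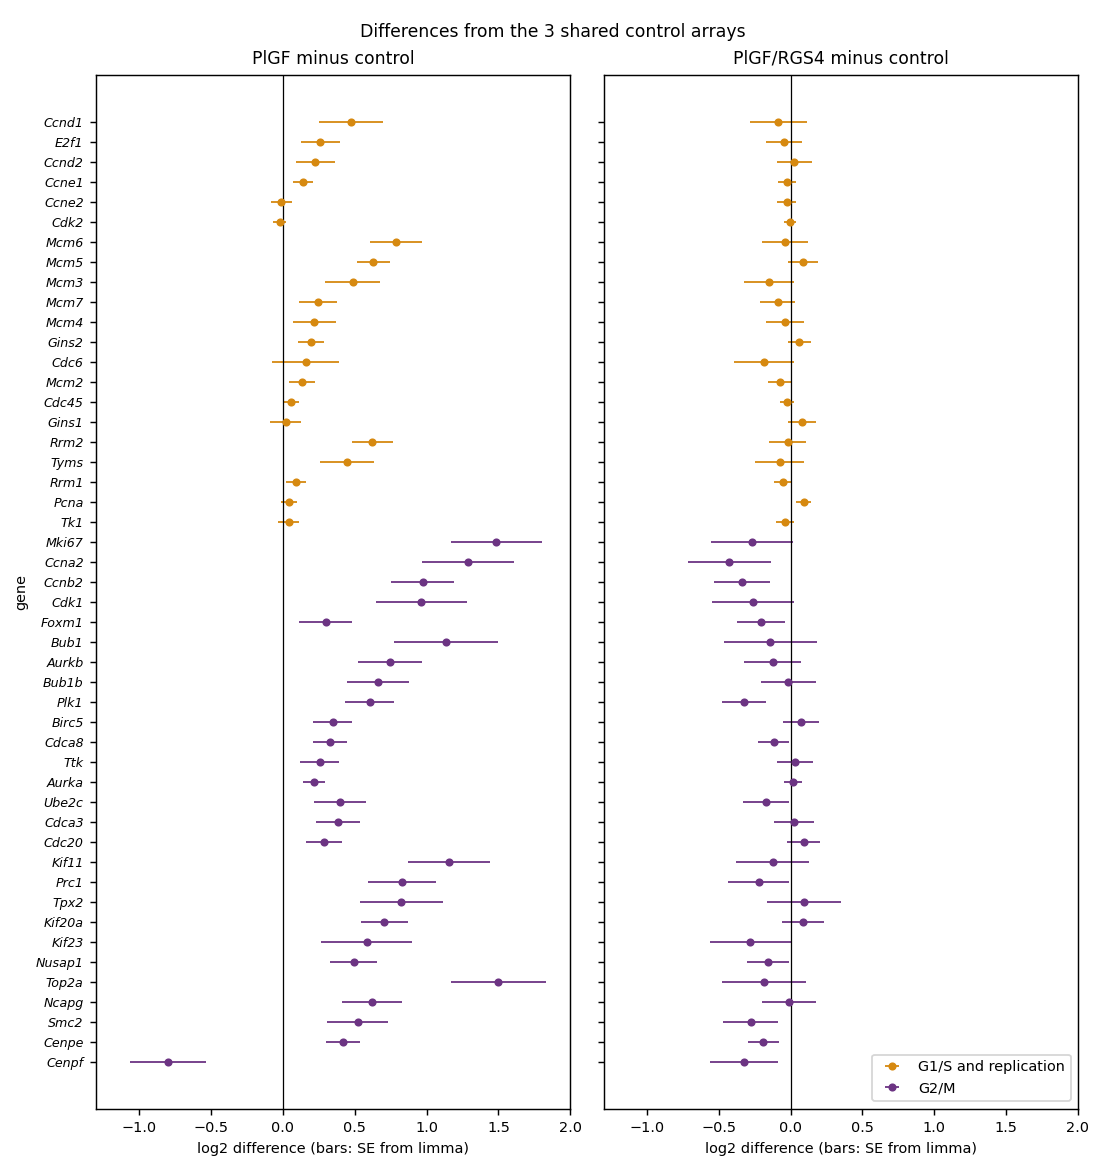
Log2 difference of each of the 48 genes from the 3 control arrays, with limma's SE as bars, for PlGF (left) and for the PlGF/RGS4-labelled arrays (right). On the left 45 of 48 points lie right of 0 and the G2/M points reach furthest, and on the right 36 of 48 lie left of 0.

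In the PlGF/RGS4-labelled arrays none of the 48 genes passed in either direction, adjusted or unadjusted (limma). The background was 0.0151% of all genes higher and 0% lower after adjustment, and 2.74% and 2.28% before it. The median difference from control was −0.04 over the G1/S and replication genes and −0.16 over the G2/M genes, against 0.003 over all genes, and 36 of the 48 were below 0. All 3 such arrays lay below every control for 5 genes (5.85% of all genes), Ccnb2, Plk1, Cenpe, Nusap1 and Smc2. They lay above every control for 1 gene (6.96%), Pcna, where the lowest read 941 against 940.8 in the highest control. Smc2 read 76.6, 75.8 and 76.6 in control and 67.9, 65.3 and 55.9 under this label, a difference of −0.28 ± 0.19 (limma adjusted p = 0.995). Cenpe read 21.5, 23.5 and 21.1 in control, 19.5, 18.3 and 19.8 under this label, beside 34.6 and 25.6 in PlGF. The same 5 genes were above every control in both PlGF hearts, so that they lay on opposite sides of the controls, as did 0.512% of all genes. Both comparisons share the 3 controls.

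Setting PlGF directly against the PlGF/RGS4-labelled arrays leaves the controls out of the difference. The median was 0.68 over the G2/M genes and 0.21 over the G1/S and replication genes, against −0.03 over all genes. Only Ccnb2 passed after adjustment, by 1.31 ± 0.22 (limma adjusted p = 0.0449; 1.10% of all genes higher), and 30 of the 48 were higher at an unadjusted p under 0.05 (8.95% of all genes). Every PlGF array exceeded every PlGF/RGS4 array for 33 of the 48 (12.6% of all genes), 22 of them G2/M genes. The Ccnb2 call was lost without any 1 array other than PlGF 2, at adjusted p values of 0.0567 to 0.182 (limma), and its difference without PlGF 1 was 0.92. Mki67 differed by 1.75 ± 0.32 (limma adjusted p = 0.0543) and Plk1 by 0.93 ± 0.17 (0.0565, limma).

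The size of these differences rested on PlGF 1. Per array, the median log2 difference from the control mean over the G2/M genes was 1.01 in PlGF 1 and 0.23 in PlGF 2, while the controls lay between −0.06 and 0.10 and the PlGF/RGS4-labelled arrays between −0.21 and −0.06. For the G1/S and replication genes the medians were 0.33 in PlGF 1 and 0.04 in PlGF 2, with PlGF 2 level with PlGF/RGS4 1 (0.04). Without PlGF 2, 37 of the 48 genes passed the adjusted test against control (36 higher and Cenpf lower), against 14.1% of all genes higher and 15.6% lower. That fit has a single PlGF array, which is assumed to vary like the other groups. Without PlGF 1 none of the 48 passed, with the same assumption, against 1.48% higher and 0.356% lower. Against the control of its own sex the median over the G2/M genes was 0.87 in PlGF 1 (1 male control) and 0.25 in PlGF 2 (2 female controls), with 0.28 and 0.02 for the G1/S and replication genes. Control 2, the male control, was the highest of the 3 controls for 21 of the 27 G2/M genes and 5 of the 21 G1/S and replication genes, against 32.5% of all genes.

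Summed markers of T and NK cells, of macrophages and monocytes and of endothelial cells were above every array of the other groups in both PlGF hearts. The sums of the other marker lists were not. The summed intensity of 13 T and NK cell markers was 618 to 637 in control, 4918 in PlGF 1, 2063 in PlGF 2 and 607 to 638 in the PlGF/RGS4-labelled arrays. Of the 13, 12 passed as higher in PlGF (limma), against 1.79% of all genes. Nkg7, a granule protein of cytotoxic cells, read 2059 and 618 in PlGF against 41.4 to 50.9 in control, and Gzmb (granzyme B) read 439 and 324 against 46.6 to 54.6. The 11 macrophage and monocyte markers summed to 4318 to 4627 in control, 9715 and 6141 in PlGF and 3751 to 4994 in PlGF/RGS4. Of them 2 passed, the chemokine receptor gene Ccr2 and the lysozyme gene Lyz2. Lyz2 was the brightest, with a mean of 2408, and read 4542 and 3126 in PlGF against 1903 to 2014 in control. The median log2 difference from the control mean over the list was 0.98 in PlGF 1 and 0.18 in PlGF 2. Of these 11, 3 had a difference below 0, among them Cd163, the scavenger receptor of resident macrophages, which was below every control in both PlGF hearts (−0.46 ± 0.10; limma adjusted p = 0.0626). The 10 endothelial markers summed to 14940 to 15440, 18270 and 17010, and 14590 to 15310, with Cdh5 (VE-cadherin) passing as higher and 3 of the 10 below 0. Of those, Vwf (von Willebrand factor) differed by −0.74 ± 0.27 (limma adjusted p = 0.164). Sums of the 8 fibroblast markers were 11150 to 11660, 14270 and 11350, and 11140 to 11920, and the brightest of them had a mean of 7738. Their median difference was 0.34, with 5 above 0 and 3 below, and 0 passed (limma). Col3a1, Col1a1 and Col1a2 were above every control in both PlGF hearts (0.67 ± 0.21, 0.60 ± 0.22 and 0.56 ± 0.22), and Pdgfra was below every control (−0.20 ± 0.09).

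Cardiomyocyte markers ran the other way in PlGF 1, with a sum of 94450 against 108500 to 110600 in the other 7 arrays. All 8 had a difference below 0 in PlGF, as did 11695 of all 19933 genes. Their median difference was −0.06, against −0.03 over all genes, and in PlGF 2 alone it was −0.001. Of the 8, 0 passed (limma), against 0.748% of all genes lower. Both PlGF hearts were below every control for Ryr2, at 3573 and 6479 against 7694 to 8408 (−0.73 ± 0.21), and for Pln, at 11130 and 14700 against 15230 to 15750. Under the PlGF/RGS4 label Ryr2 read 6632 to 7289, also below every control. The 8 pericyte and smooth muscle markers summed to 13360 to 14190 in control, 13560 and 12630 in PlGF and 10680 to 12370 in PlGF/RGS4. Bright genes weigh most in such a sum, and the brightest had a mean of 3727. In PlGF 5 of the 8 were above 0 and 3 below, with a median difference of 0.09. Both PlGF hearts were above every control for 3 of them (14.3% of all genes) and below for 1 (19.5%). The PDGF receptor gene Pdgfrb alone passed, as higher, by 0.39 ± 0.07 (limma adjusted p = 0.0459). B cell markers (5 genes) summed to 241 to 301 and neutrophil markers (8 genes) to 290 to 421 over all arrays, and 0 of them passed. The 3 erythroid markers measured summed to 284 to 822, with PlGF 1 the lowest. None of these marker genes was listed at 0. Their part in the differences of the replication and mitosis genes was not tested.

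**Figure D5:**
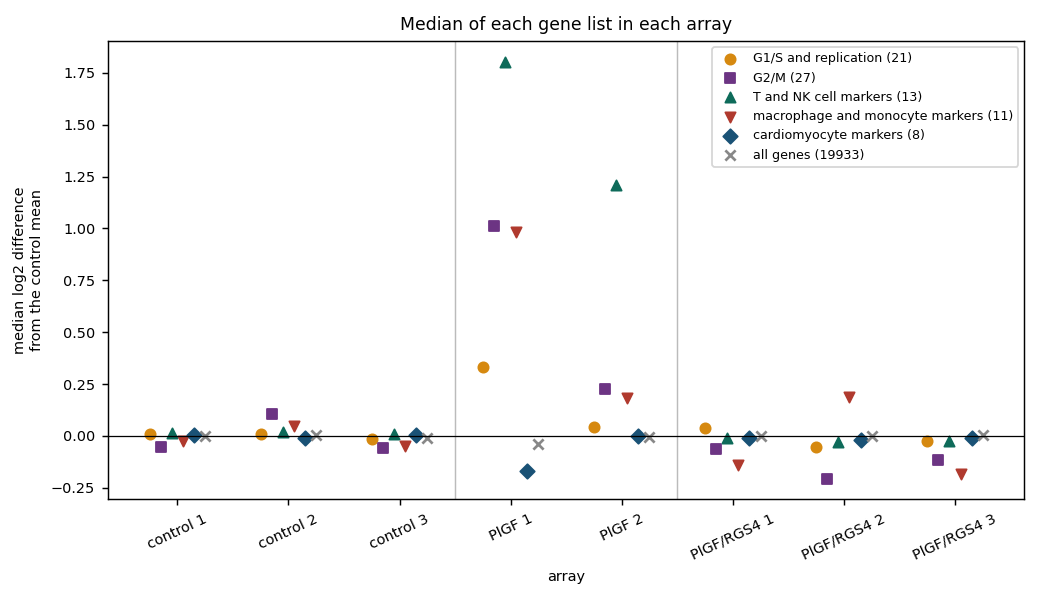
Median log2 difference from the control mean in each array for the 2 gene groups, 3 sets of cell type markers and all genes. In PlGF 1 the G2/M median (1.01) is close to the macrophage and monocyte median (0.98), the T and NK cell median is higher in both PlGF arrays (1.80 and 1.21), and the cardiomyocyte median in PlGF 1 is −0.17.

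Further lists of the same pathway, also drawn up with earlier results of these data known, are given by their counts. Over all genes, 1.79% were higher and 0.748% lower in PlGF after adjustment (limma), and 10.9% and 11.7% at an unadjusted p under 0.05. Of 63 further G2 and mitosis genes 2 rose in PlGF (limma, adjusted) and 28 were higher and 1 lower before adjustment, with a median difference of 0.31. Those that passed were Smc4 and Hmgb2. Smc4, a condensin core subunit that pairs with Smc2, read 244, 265 and 257.5 in control and 355 and 341 in PlGF (0.44 ± 0.07, limma adjusted p = 0.0276). Hmgb2, a chromatin protein abundant in dividing cells, read 132.5, 132.5 and 126 and then 207 and 180.0 (0.56 ± 0.09, limma adjusted p = 0.0361). Hmgb2 has 4 probe sets, and these values are those of the brightest only. Of 47 further replication and G1/S genes 0 passed (limma), 15 were higher and 2 lower before adjustment, and the median was 0.15. Among these Gmnn, which encodes the licensing inhibitor geminin, was lower in PlGF at 54.6 and 76.7 against 112, 90.6 and 106 (−0.66 ± 0.20; limma adjusted p = 0.119).

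Of 23 cell cycle inhibitors and pocket protein genes 1 rose and 1 fell after adjustment (limma), against 1.79% and 0.748% of all genes. Btg1, an antiproliferative gene, read 1208, 1269 and 974.5 in control and 2176 and 1818 in PlGF (limma adjusted p = 0.0349). Wee1, the kinase that holds Cdk1 inactive, read 872, 684 and 716 in control and 391.5 and 395 in PlGF, with the PlGF hearts close to each other (−0.94 ± 0.16; limma adjusted p = 0.0377). Under the PlGF/RGS4 label it read 662, 503 and 464, also below every control. Of 15 replication-dependent histone genes 7 had a probe set, and 2 of these rose (1.79% of all genes). H2ac15 read 648 and 376 in PlGF against 211 to 225 in control, and H1f1 read 168 and 161 against 122 to 131 (limma adjusted p = 0.0422 and 0.0436). Histone genes have near-identical copies that a probe set may not tell apart, so the source of that signal is uncertain.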

How the data were processed

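Left ventricular RNA was hybridised to Affymetrix mouse gene 1.0 ST arrays, 1 per mouse (3 control, 2 PlGF, 3 labelled PlGF/RGS4). The authors deposited linear intensity values, and both their methods and the submitters' processing notes name MAS5, with global scaling. The deposited values hold exact repeats between arrays (27.85% of 6158 probe sets over an intensity of 500), so the summarisation is not settled. Array medians were 111.1 to 115.2, and the small number of arrays limits the precision.

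Of 28440 probe sets, the 21780 with 1 symbol gave 19933 genes, the brightest probe set of each. R 4.3.3 with limma 3.58.1 fitted log2(intensity + 1) of all 8 arrays with 3 group means, with Benjamini-Hochberg adjustment over all genes and a threshold of 0.05. All 48 measured members could be named. From each of 14 further lists (240 genes, 220 measured), up to 4 genes with the smallest unadjusted p in PlGF versus control could be named, and Pgf, Rgs4 and Xist. The members and lists were chosen with earlier results of these data known, so nothing here is independent support for a pattern. Sex was read from Xist. Scripts were tested on simulated data. Alternatives were quantile normalization, median centring, a level filter, averaged probe sets, another prior, array weights, 2 groups only, a t-test, sex, the replicate block, another pseudocount and each array left out. RefSeq promoters (GRCm38.p6) were searched for exact motif letters.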

Additional observations from a re-analysis of the deposited data

Results flagged for a closer look

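Among the 48 genes, Ccnb2 differed between the PlGF hearts and the arrays labelled PlGF/RGS4 by a test of that difference, 1.31 on the log2 scale (limma adjusted p = 0.0449). Plk1 (0.93), Nusap1 (0.65), Cenpe (0.61) and Smc2 (0.80) were above every control in both PlGF arrays and below every control in all 3 arrays labelled PlGF/RGS4, and so was the histone gene H2ac4 (1.84). The test of the difference gave these 5 limma adjusted p values of 0.0565, 0.112, 0.0637, 0.131 and 0.0875.

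Outside the 48 genes, the difference between PlGF and PlGF/RGS4 also passed for Smc4 (0.53), Hmgb2 (0.71), H2ac15 (1.50) and H1f1 (0.41), and for the leukocyte markers Gzmb (2.72), Nkg7 (4.57), Gzma (1.32), Klrk1 (1.53) and Ccr2 (2.55). The Tk1 probe set that was not used because another was brighter differed by 0.53 between PlGF and control (limma adjusted p = 0.167 over all probe sets), with both PlGF arrays, at 101 and 62.3, above the highest control, at 62.1.

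No group held the 4 arrays that the search for a single outlying array needs.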

How the results depend on the processing

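The number of the 48 genes that passed in PlGF versus control was 1 in the fit reported and 0 with array weights, with only the 2 groups compared, with the methods' t-test, with the replicate block and with log2(intensity + 16). It was 3 with sex as a covariate, Ccnb2, Rrm2 and (lower) Cenpf, and 0 to 37 when single arrays were left out, the 37 without PlGF replicate 2, where the lone PlGF array is assumed to vary like the other groups. In PlGF versus PlGF/RGS4 the number was 1 in the fit reported, 2 with quantile normalization, 3 with each array centred on its median, and 0 with array weights, with only the 2 groups compared, with the methods' t-test, with the replicate block and with log2(intensity + 16). It was 0 to 36 when single arrays were left out, the 36 without PlGF replicate 2. In PlGF/RGS4 versus control it was 0 under every alternative run. The causes were not tested.

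Deviations of same-numbered arrays from their group means correlated from −0.22 to 0.30. Those of PlGF 1 and PlGF 2 are equal and opposite, so these values cannot settle whether the replicate numbers mark a pairing. The replicate block took the number of all genes passing in PlGF versus control from 356 higher and 149 lower to 25 and 2. With only the 2 groups compared it was 0 and 0, with array weights 126 and 5, and with log2(intensity + 16) 251 and 119. With the methods' t-test it was 0 and 2, and with single arrays left out it ran from 16 higher and 1 lower, without control replicate 3, to 2820 and 3101, without PlGF replicate 2. With each array centred on its median it was 376 and 317, and the median of all genes moved to −0.08. In PlGF versus PlGF/RGS4 220 genes passed as higher, against 26 with the replicate block, 1 with only the 2 groups compared, 0 with the methods' t-test, 125 with log2(intensity + 16) and 11 to 2594 with single arrays left out.

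The median difference of the G1/S and replication genes ran from 0.041 to 0.33 in PlGF versus control and from 0.056 to 0.36 in PlGF versus PlGF/RGS4 when single arrays were left out, and that of the G2/M genes from 0.23 to 1.01 and from 0.34 to 1.11. In each case the lowest was without PlGF replicate 1 and the highest without PlGF replicate 2. Among only genes above the median level, 2 G2/M genes remain, Ccnb2 and Cenpf, and the median was 0.085 against control and 0.42 against PlGF/RGS4.

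Of 48 genes, 8 turned direction in PlGF versus control under some alternative, all with differences of at most 0.30 in the fit reported. With arrays left out in turn, Cdc6 ran from −0.14 to 0.46, E2f1 from −0.0089 to 0.53, Foxm1 from −0.020 to 0.61, Gins1 from −0.0024 to 0.038, Mcm2 from −0.020 to 0.28 and Rrm1 from −0.010 to 0.19, each lowest without PlGF replicate 1. Median centring gave Gins1 −0.035, Pcna −0.012 and Tk1 −0.014, quantile normalization gave Tk1 −0.018, and Gins1 was −0.0023 with sex as a covariate and −0.038 with the replicate block. Signal limits these values too, since 36 of the 48 genes lay below the median level of all genes.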
